A study of Mus musculus with 12 samples.

Results

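The genes described here are 10 that take part in arterial calcification and in the bone-like and cartilage-like programs of vessel wall cells. They were taken from the count table by gene symbol, namely Mgp, Spp1, Enpp1, Ank, Alpl, Runx2, Sox9, Acan, Comp and Tnfrsf11b. The table held 27933 genes, of which 14621 had enough counts to be tested, and all 10 were among those. The RNA came from the thoracic aorta of C57BL/6J mice aged 8 months, freed of fat and frozen, and was sequenced from SMART-Seq v4 libraries, a full-length cDNA method for small RNA amounts. The mice were wild type (WT) or alpha7-nAChR KO (KO), labelled as lacking the alpha7 nicotinic acetylcholine receptor. From 5 months of age each genotype breathed either room air or nicotine vapor for 12 weeks. The 12 libraries form 4 groups of 3, and a library is called by the number in its label. Wild types are 8, 9 and 10 under air with 6, 11 and 12 under nicotine, and knockouts are 1, 2 and 7 under air with 3, 4 and 5 under nicotine.

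Calcium phosphate can crystallise in the elastic matrix of an artery, and smooth muscle cells normally hold this back. They secrete matrix Gla protein, and they generate and export pyrophosphate, which blocks crystal growth until alkaline phosphatase splits it. In calcifying vessels, smooth muscle cells can take up transcription factors and matrix genes of bone and cartilage, and osteoprotegerin, a decoy for the RANK ligand, is one of the brakes on the bone-resorbing side.

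Library totals ran from 10240031 to 12628323 counts, and the labels do not say that each library is a separate mouse, so p-values measure the spread between libraries. They also do not say which stretch of Chrna7 was removed, so counts over the gene do not check the genotype, and the library numbers nearly separate KO (1 to 5 and 7) from WT (6 and 8 to 12) without a stated meaning. Levels are given as CPM (counts scaled to library size, with TMM, a factor for differing library make-up). Summed CPM of 10 smooth muscle markers ran from 25660 to 51400, so RNA of the labelled tissue's main cell type was abundant in every library. Several defining bone and cartilage markers were near 0, with Bglap at 0 or 1 count, Matn1 at 0 or 1, Mepe at 0 to 2 and Col2a1 at 0 to 5 in the 12 libraries. Others were present, with 49 to 193 counts of Phex, 3 to 46 of Ibsp, 75 to 174 of Hapln1 and 6307 to 16569 of Sost. Sp7, one of the osteoblast markers, had 30 counts in KO air 7 and 0 to 8 in the other libraries. The summed level was 11.7 to 24.4 CPM over 8 osteoblast markers (Sost not among them) and 8.56 to 16.1 CPM over 8 chondrocyte markers. A pair of KO libraries stood apart in other tissues' markers. The sum of 6 mesothelial markers was 75.8 CPM for KO air 7 and 40.5 CPM for KO nicotine 3, against 2.66 to 12.8 CPM in the other 10 libraries. KO nicotine 3 also had 194 CPM over 8 skeletal muscle markers, against 8.58 to 43.3 CPM in all others. Adipocyte markers (9 genes) ran from 930.5 CPM in WT air 9 to 6446 CPM in KO nicotine 4.

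Promoter sequence (250 bases before the start, RefSeq, GRCm38.p6) was at hand for 6 of the 10 genes, the others being Mgp, Sox9, Comp and Tnfrsf11b. The promoters of 4 genes are shown. Spp1 had the widest range between libraries, Runx2 encodes a factor whose core motif was searched, and Enpp1 and Ank are the pyrophosphate genes with lower values under nicotine. Each is written 5′ to 3′ on the gene's strand, at chr5:104434861-104435110 (+) for Spp1, chr17:44814628-44814877 (-) for Runx2, chr10:24712160-24712409 (-) for Enpp1 and chr15:27466427-27466676 (+) for Ank.
Spp1: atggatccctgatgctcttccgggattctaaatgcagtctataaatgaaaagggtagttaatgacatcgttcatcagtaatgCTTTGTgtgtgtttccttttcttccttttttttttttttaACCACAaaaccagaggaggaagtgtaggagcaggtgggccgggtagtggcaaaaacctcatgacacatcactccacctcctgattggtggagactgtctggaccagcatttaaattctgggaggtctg
Runx2: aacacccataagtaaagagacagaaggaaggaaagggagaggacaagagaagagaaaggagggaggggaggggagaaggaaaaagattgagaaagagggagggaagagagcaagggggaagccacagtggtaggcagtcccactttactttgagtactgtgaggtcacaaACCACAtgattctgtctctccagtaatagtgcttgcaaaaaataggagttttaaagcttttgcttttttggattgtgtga
Enpp1: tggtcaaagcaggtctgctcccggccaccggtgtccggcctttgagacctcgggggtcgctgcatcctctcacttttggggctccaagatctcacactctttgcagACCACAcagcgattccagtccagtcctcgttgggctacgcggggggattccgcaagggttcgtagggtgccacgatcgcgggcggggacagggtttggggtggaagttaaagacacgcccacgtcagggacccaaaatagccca
Ank: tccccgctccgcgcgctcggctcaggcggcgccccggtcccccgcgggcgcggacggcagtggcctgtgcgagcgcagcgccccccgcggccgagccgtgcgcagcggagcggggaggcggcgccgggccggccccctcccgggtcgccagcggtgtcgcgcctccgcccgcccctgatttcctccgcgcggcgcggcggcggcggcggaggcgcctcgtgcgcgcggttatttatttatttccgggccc
Capitals mark the RUNX core (TGTGGT, read on the other strand as ACCACA) and the SOX core (ACAAAG, read on the other strand as CTTTGT), both searched on both strands. The RUNX core lay at positions -128 to -123 from the start of Spp1, -80 to -75 from that of Runx2 and -144 to -139 from that of Enpp1. It is in 14% of 32851 mouse promoters of this length, and the SOX core, found at positions -168 to -163 from the Spp1 start, is in 16.5%. The Spp1 sequence above is that of start 1. The SOX core also lay at -243 to -238 from Spp1 start 2 and before both Alpl starts, which are not shown. The AP-1 motif TGANTCA (6.75% of promoters) and the CArG box (1.47%) were in none of the promoters of the 6 genes. These matches describe the letters only.

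**Figure D1:**
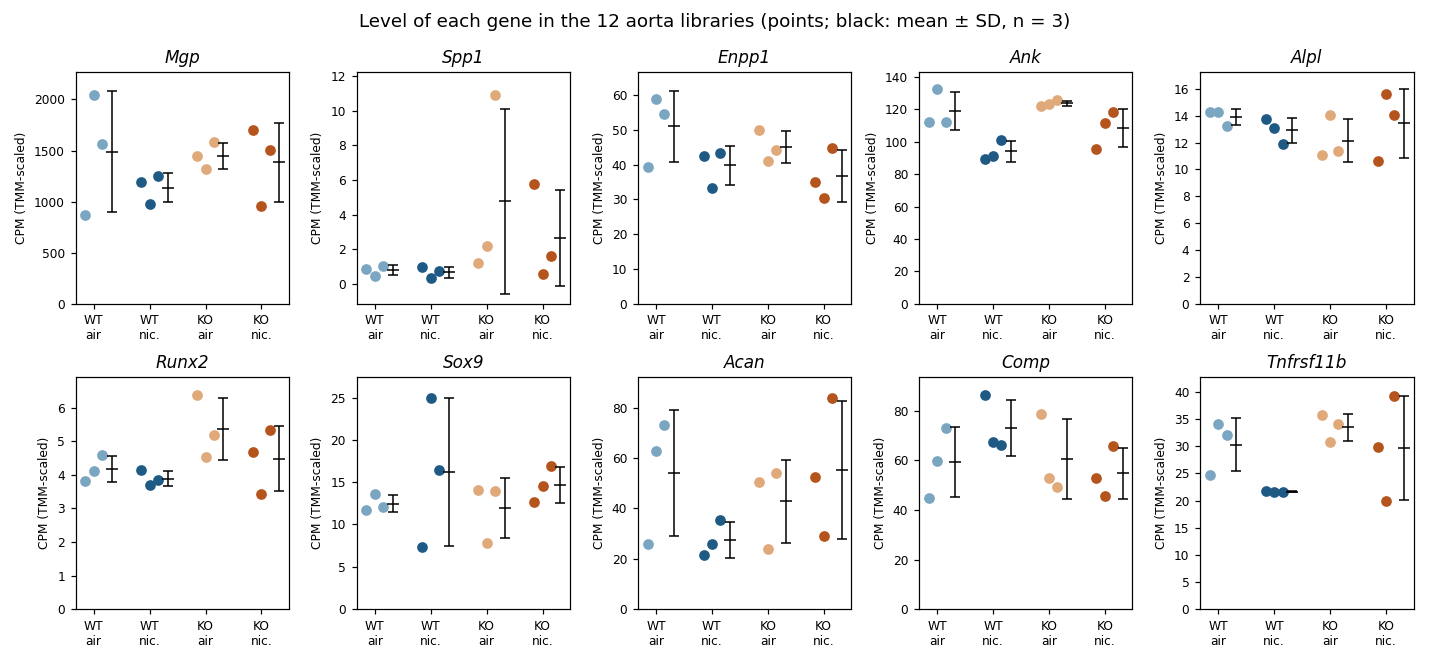
Level of each of the 10 genes in CPM on the vertical axis, with 1 point per library, 4 groups on the horizontal axis and black bars for the mean ± SD (n = 3). Spp1 was high in KO air 7 and KO nicotine 3, and Tnfrsf11b was tightly grouped in WT nicotine. Groups next to each other in mean level overlap in every panel, while some groups further apart do not.

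None of the 10 genes changed past the edgeR threshold (Benjamini-Hochberg adjusted p under 0.05 over all 14621 genes) in any of 7 comparisons. When the 4 groups of each gene were ordered by mean level, all 30 pairs of neighbouring groups overlapped in their libraries. Neighbours in this order are the groups closest in level, so their overlap says little, and its share over all genes was not computed. Some groups further apart in the order did not overlap, as given below for Ank, Tnfrsf11b, Spp1 and Comp. For Mgp and Runx2, too, every KO air library lay above every WT nicotine library. The range between libraries differed from gene to gene. The highest library was 32.5 times the lowest for Spp1, 3.89 times for Acan and 3.38 times for Sox9, but 1.48 times for Ank and 1.47 times for Alpl.

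The first comparison asked what nicotine vapor did in WT aortas. Of the 10 genes, 0 passed the edgeR threshold, against 0.0205% of all genes tested (3 genes), and DESeq2 and limma voom also called 0. At an unadjusted p under 0.05 there were 2 of 10, Ank and Tnfrsf11b, against 9.84% of all genes. In the same pair every nicotine library lay below every air library, which held for 6.05% of all genes. The log2 fold change was below 0 for 8 of the 10 genes, with a median of -0.29, against a median of -0.0047 over all genes. In KO aortas the corresponding comparison gave 0 of 10 past the threshold (0% of all genes) and 0 of 10 at an unadjusted p under 0.05 (4.58% of all genes), again with 0 calls by DESeq2 and voom. Ank was the 1 gene of 10 with every nicotine library lower in KO, against 5.55% of all genes. In KO, 7 of 10 log2 fold changes were below 0, with a median of -0.16 against 0.01 over all genes.

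The pyrophosphate genes are described first, since Ank had the smallest p of the 10 in both nicotine comparisons. Ank encodes a membrane protein needed for the export of pyrophosphate or its precursor ATP. Its level was 112, 133 and 112 CPM in WT air libraries 8, 9 and 10 and 89.5, 91.5 and 101 CPM in WT nicotine libraries 6, 11 and 12. In KO air 1, 2 and 7 it was 122, 123 and 126 CPM, and in KO nicotine 3, 4 and 5 it was 95.3, 112 and 119 CPM. Nicotine libraries were thus lower than air libraries within each genotype with no overlap, though KO nicotine 5 lay above 2 WT air libraries. The log2 fold change with nicotine was -0.34 ± 0.11 (SE, 95% interval -0.58 to -0.10, edgeR adjusted p = 0.362) in WT and -0.19 ± 0.11 (-0.43 to 0.05, edgeR adjusted p = 0.878) in KO, where it was -0.097 without KO nicotine 3. Without WT air 9 the WT value was -0.26 (edgeR unadjusted p = 0.0545). Averaged over genotypes the log2 fold change was -0.27 ± 0.08, or 1.202-fold lower, with an unadjusted p of 0.00523 and an edgeR adjusted p of 0.336.

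Enpp1 encodes the ectoenzyme that makes extracellular pyrophosphate from ATP. It was at 39.3, 59.0 and 54.6 CPM in WT air (8, 9 and 10), and at 42.5, 33.4 and 43.5 CPM in WT nicotine (6, 11 and 12). KO air libraries had 50.0, 41.0 and 44.1 CPM and KO nicotine libraries 35.1, 30.3 and 44.8 CPM. WT air 8 was below 2 of the 3 WT nicotine libraries, and KO nicotine 5 was above 2 of the KO air libraries, so the exposures overlapped in both genotypes. On the log2 scale the change was -0.36 ± 0.18 (-0.74 to 0.03, edgeR adjusted p = 0.541) in WT and -0.29 ± 0.18 (-0.68 to 0.09, edgeR adjusted p = 0.878) in KO. Without WT nicotine 11 the WT value was -0.23, and the KO value was -0.17 without KO nicotine 4 and -0.46 without KO nicotine 5. The average over genotypes was -0.33 ± 0.13 (unadjusted p = 0.0226, edgeR adjusted p = 0.395).

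Alpl, the tissue-nonspecific alkaline phosphatase that hydrolyses pyrophosphate, had the narrowest range between libraries of the 10 genes. WT levels were 14.3, 14.2 and 13.2 CPM under air against 13.8, 13.1 and 11.9 CPM under nicotine. KO levels were 11.1, 14.0 and 11.4 CPM under air against 10.6, 15.6 and 14.1 CPM under nicotine. Every group overlapped every other. Its log2 fold change with nicotine was -0.11 ± 0.18 (-0.49 to 0.27, edgeR adjusted p = 0.874) in WT and 0.15 ± 0.18 (-0.24 to 0.53, edgeR adjusted p = 0.903) in KO. These intervals leave room for a decrease of up to 0.49 or an increase of up to 0.53 on the log2 scale.

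Smooth muscle markers had lower values in the nicotine groups as well, and Ank and Enpp1 are read beside them. In each genotype 9 of the 10 markers had a log2 fold change below 0, with a median of -0.46 in WT and -0.34 in KO, none past the edgeR threshold. Under air and under nicotine their sum was 34250 to 51400 and 31150 to 36070 CPM for WT, and 35510 to 42900 and 25660 to 41900 CPM for KO. Adipocyte markers had the opposite sign in 8 of 9 genes in WT and 9 of 9 in KO (medians 0.73 and 0.51). In bulk tissue, fewer smooth muscle cells and less RNA per cell cannot be told apart, and the part of these shifts in the Ank and Enpp1 values was not tested.

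**Figure D2:**
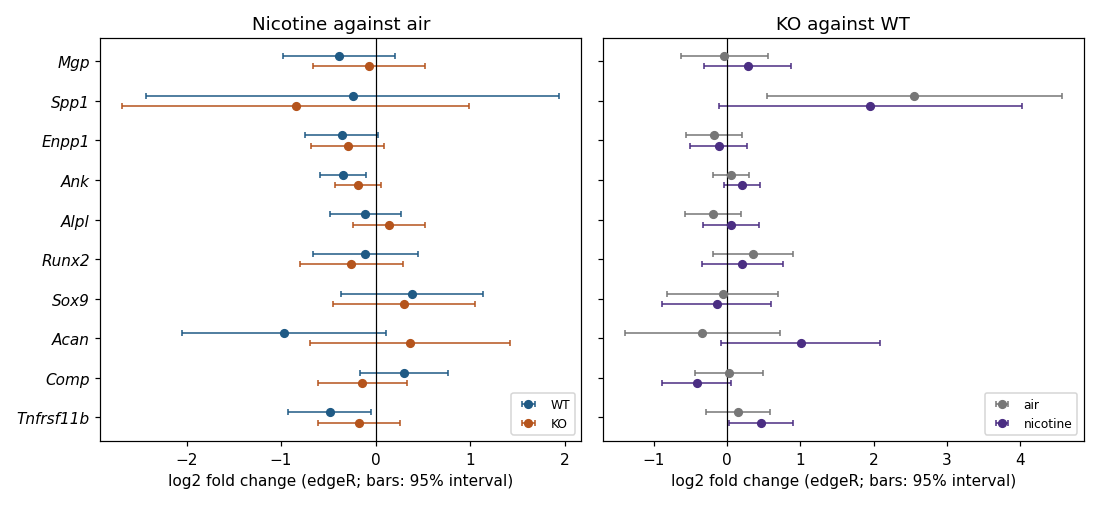
Log2 fold change of the 10 genes (horizontal axis, edgeR, bars are 95% intervals) for nicotine against air in each genotype (left) and for KO against WT in each exposure (right). Ank and Tnfrsf11b in WT lie wholly below 0 on the left, and on the right Spp1 in air and Tnfrsf11b in nicotine lie wholly above 0, all before adjustment over 14621 genes.

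Tnfrsf11b encodes osteoprotegerin, the soluble decoy receptor of the RANK ligand. It stood at 24.7, 34.1 and 32.1 CPM in WT air libraries 8, 9 and 10, and at 21.7, 21.6 and 21.6 CPM in WT nicotine libraries 6, 11 and 12. KO air libraries 1, 2 and 7 had 35.7, 30.8 and 34.1 CPM, and KO nicotine libraries 3, 4 and 5 had 29.9, 19.9 and 39.3 CPM. The 3 WT nicotine libraries were lower than all WT air libraries (6.05% of all genes) and also lower than all KO air libraries. The latter held as well for Ank, Mgp, Runx2 and Spp1, and its share over all genes was not computed. KO nicotine spanned the whole range of the Tnfrsf11b data, with the lowest and the highest of the 12 values. On the log2 scale the difference was -0.49 ± 0.20 (-0.92 to -0.05, unadjusted p = 0.0323, edgeR adjusted p = 0.463) in WT. Without WT air 9 this was -0.39 (edgeR unadjusted p = 0.110). Leaving out WT air 10 or any 1 of WT nicotine 6, 11 and 12 also took the edgeR unadjusted p above 0.05. In KO the difference was -0.17 ± 0.20 (-0.61 to 0.26, edgeR adjusted p = 0.898), and 0.05 without KO nicotine 4. The average over genotypes was -0.33 ± 0.14 (unadjusted p = 0.0383, edgeR adjusted p = 0.431). KO nicotine 4 had a smooth muscle sum of 27650 CPM and the highest adipocyte sum, 6446 CPM, and KO nicotine 5 had 41900 and 2680 CPM. KO nicotine 3, between these libraries in Tnfrsf11b, had the lowest smooth muscle sum, 25660 CPM, and an adipocyte sum of 4268 CPM.

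The ligand and the signalling receptor of osteoprotegerin's pathway were read beside it. Tnfsf11, the RANK ligand, had 0 to 9 counts per library, and changes in it were not detectable at this depth. Tnfrsf11a, the receptor RANK, was at 41.9, 66.8 and 74.7 CPM in WT air and 43.8, 33.0 and 38.1 CPM in WT nicotine, with a log2 fold change of -0.68 ± 0.23 (edgeR adjusted p = 0.379). WT air 8 lay below WT nicotine 6, so these groups overlapped. In KO its levels were 53.0, 50.0 and 45.3 CPM in air and 38.0, 36.1 and 60.3 CPM in nicotine, which overlapped as well.

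Of the secreted crystal inhibitors, Mgp encodes matrix Gla protein, whose loss calcifies mouse arteries. WT libraries had raw counts of 9956, 24761 and 19403 under air against 12099, 11615 and 15277 under nicotine. KO libraries had 16988, 15479 and 19126 under air against 18528, 9990 and 18582 under nicotine. The WT air group contained both the lowest and the highest scaled level of the 12 libraries, 866 CPM in library 8 and 2039.9 CPM in library 9. The mean level under air and under nicotine was 1490.4 ± 590.3 and 1137 ± 144 CPM for WT, and 1449 ± 128 and 1385 ± 386 CPM for KO (SD, n = 3). The log2 fold change with nicotine was -0.39 ± 0.27 (-0.98 to 0.20, edgeR adjusted p = 0.673) in WT, -0.097 without WT air 9 and -0.64 without WT air 8. In KO it was -0.07 ± 0.27 (-0.66 to 0.53, edgeR adjusted p = 0.974), 0.14 without KO nicotine 4 and 0.0016 without KO air 7. Both low libraries, WT air 8 and KO nicotine 4, had smooth muscle sums at the low end of their groups or near it (34250 and 27650 CPM) and adipocyte sums at the high end (4325 and 6446 CPM). KO nicotine 3 went the other way. Its smooth muscle sum was lower still, 25660 CPM, with an adipocyte sum of 4268 CPM, but its Mgp level was 1697 CPM, the highest of its group. The part of tissue make-up in the Mgp values was not tested.

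Spp1 encodes osteopontin, an acidic phosphoprotein that binds mineral, integrins and CD44 and is also made by macrophages. It was scarce, with 10, 6 and 13 counts in WT air 8, 9 and 10 and 10, 4 and 9 counts in WT nicotine 6, 11 and 12. KO air 1, 2 and 7 had 14, 26 and 132 counts, and KO nicotine 3, 4 and 5 had 63, 6 and 20 counts. In air all 3 KO libraries lay above all 3 WT libraries, and in nicotine KO nicotine 4 fell within the WT range. Its mean level under air and under nicotine was 0.804 ± 0.283 and 0.685 ± 0.327 CPM for WT, and 4.77 ± 5.33 and 2.65 ± 2.75 CPM for KO (SD, n = 3). The SD in each KO group was thus above its mean.

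KO against WT, the question of what loss of the receptor did, gave Spp1 its largest differences. In air the log2 fold change was 2.55 ± 0.92 (0.55 to 4.56), a 5.87-fold higher level in KO, with an unadjusted p of 0.0170 and an edgeR adjusted p of 0.995. Averaged over exposures it was 2.25 ± 0.66 (0.81 to 3.69), or 4.76-fold, with an unadjusted p of 0.00520 and an edgeR adjusted p of 0.416. DESeq2 gave 2.25 with an adjusted p of 0.0334 for this average, the 1 setting in which any of the 10 genes was called. DESeq2 called 116 genes in all there, against 0 by edgeR and 0 by limma voom. For Spp1, limma voom gave 1.72 with an adjusted p of 0.671. Without KO air 7 the difference in air was 1.07 (edgeR adjusted p = 0.999). Without that library the average was 1.51 (edgeR adjusted p = 0.651), without KO nicotine 3 it was 1.63 (0.576), and without both, a choice made after seeing the data, 0.89 (edgeR adjusted p = 0.844).

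**Figure D3:**
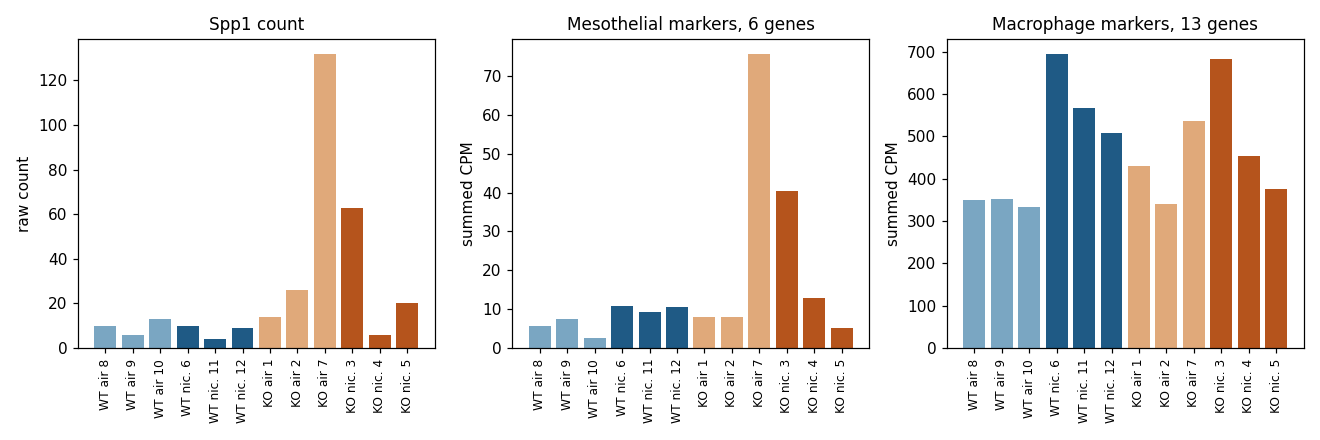
Bars give, for each of the 12 libraries on the horizontal axis, the raw Spp1 count, the summed CPM of 6 mesothelial markers and the summed CPM of 13 macrophage markers, with all axes starting at 0. KO air 7 and KO nicotine 3 have the highest bars for Spp1 and for the mesothelial markers, and the macrophage bars are highest in WT nicotine 6 and KO nicotine 3.

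The 2 libraries with the most Spp1 were the 2 with the most mesothelial marker RNA, in the same order. The order did not hold beyond them. KO nicotine 4 had the next highest mesothelial sum, 12.8 CPM, with 6 Spp1 counts. KO air 2 had 26 Spp1 counts with a sum of 7.86 CPM, and KO nicotine 5 had 20 with 5.10 CPM. All 6 mesothelial markers were detected in every library but KO nicotine 5, which had 0 counts of Upk1b. Msln, which encodes mesothelin, had 211 counts in KO air 7. KO nicotine 3 had 31 Msln counts, no more than WT nicotine 12 with 31, and KO air 1 and 2 had 23 each. Upk3b had 344 counts in KO air 7 and 87 in KO nicotine 3, against 14 to 42 in the other libraries. Krt19 had 61 and 176, against 3 to 26. The KO against WT log2 fold change in air was above 0 for 6 of 6 of these markers, with a median of 2.64, none past the edgeR threshold. Macrophage markers were read beside Spp1 as well. Their sum over 13 genes under air and under nicotine was 333 to 353 and 509 to 696 CPM for WT, and 341 to 536 and 376 to 683 CPM for KO. Within each KO group the library with the most Spp1 also had the highest macrophage sum, with 536 CPM for KO air 7 against 429 and 341 CPM for the other two, and 683 CPM for KO nicotine 3 against 453 and 376 CPM. In WT, nicotine library 6, with 696 CPM, had 10 Spp1 counts. All 13 had a log2 fold change above 0 with nicotine in WT, where Spp1 was -0.24 ± 1.002 (-2.43 to 1.94, edgeR adjusted p = 0.957). That Spp1 value was 0.10 without WT nicotine 11 and 0.00048 without WT air 10. In KO the Spp1 log2 fold change with nicotine was -0.85 ± 0.84 (-2.68 to 0.99, edgeR adjusted p = 0.885), 0.63 without KO air 7 and -2.08 without KO nicotine 3. The osteoblast marker Sp7 was also highest in KO air 7, with 30 counts, but had 2 counts in KO nicotine 3. The part of mesothelial, macrophage or osteoblast marker RNA in the Spp1 values was not tested.

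Runx2, the master transcription factor of osteoblasts, was low in every library. WT libraries had 44, 50 and 57 counts under air against 42, 44 and 47 under nicotine. KO libraries had 75, 53 and 63 counts under air against 51, 36 and 66 under nicotine. KO air 1 was highest and KO nicotine 4 lowest, and each group overlapped its neighbours in level. Mean levels under air and under nicotine were 4.18 ± 0.388 and 3.89 ± 0.225 CPM for WT, and 5.37 ± 0.935 and 4.48 ± 0.968 CPM for KO (SD, n = 3). With nicotine the log2 fold change was -0.11 ± 0.26 (-0.66 to 0.45, edgeR adjusted p = 0.922) in WT and -0.26 ± 0.25 (-0.80 to 0.29, edgeR adjusted p = 0.885) in KO. The antisense gene Runx2os1 overlaps Runx2 exons and had 0 to 3 counts. Whether the counting used strand is not given in the sources used here.

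Sox9, which drives cartilage formation, differed mainly between the WT nicotine libraries. Levels were 11.7, 13.6 and 12.1 CPM in WT air and 7.38, 24.9 and 16.4 CPM in WT nicotine, so nicotine libraries 6 and 11 held the lowest and the highest of all 12 values. KO air libraries had 14.0, 7.86 and 13.9 CPM and KO nicotine libraries 12.6, 14.6 and 16.9 CPM. The log2 fold change was 0.39 ± 0.35 (-0.37 to 1.14, edgeR adjusted p = 0.748) in WT, -0.039 without WT nicotine 11 and 0.75 without WT nicotine 6. In KO it was 0.30 ± 0.35 (-0.45 to 1.06, edgeR adjusted p = 0.896).

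Acan encodes aggrecan, the large proteoglycan of cartilage that also accumulates in the aortic media. It was at 25.8, 62.9 and 73.2 CPM in WT air 8, 9 and 10 and at 21.5, 25.7 and 35.4 CPM in WT nicotine 6, 11 and 12. KO air libraries had 50.4, 24.0 and 54.0 CPM and KO nicotine libraries 52.3, 29.2 and 83.8 CPM. In WT the groups were apart but for WT air 8, which lay between the lower 2 and the highest nicotine library. Acan had the largest log2 fold change with nicotine in WT among the 10 genes, -0.97 ± 0.48 (-2.05 to 0.11, unadjusted p = 0.0722, edgeR adjusted p = 0.547). In KO its value had the opposite sign, 0.37 ± 0.47 (-0.69 to 1.43, edgeR adjusted p = 0.910), and was -0.064 without KO nicotine 5.

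The difference between the genotypes in the response to nicotine was tested directly. For Acan it was 1.34 ± 0.68 (-0.17 to 2.85, unadjusted p = 0.0768, edgeR adjusted p = 0.999), the smallest p of the 10. Over the 10 genes these differences ran from -0.60 (Spp1) to 1.34, with 0 past the edgeR threshold against 0% of all genes and 0 at an unadjusted p under 0.05 against 4.43%. DESeq2 and voom also called 0 of the 10. The median standard error of this difference over all genes was 0.31, against 0.22 between groups. Among the 10 genes it ran from 0.16 (Ank) to 1.32 (Spp1). Each gene's own standard error sets how small a genotype-specific response these libraries could show for it.

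Comp encodes cartilage oligomeric matrix protein, a pentameric glycoprotein that also occurs in the vessel wall. WT levels were 44.99, 59.7 and 73.2 CPM under air against 86.3, 67.4 and 66.1 CPM under nicotine. KO levels were 79.0, 53.0 and 49.4 CPM under air against 53.0, 45.6 and 66.0 CPM under nicotine. The exposures overlapped in both genotypes. The log2 fold change with nicotine was 0.30 ± 0.22 (-0.16 to 0.77, edgeR adjusted p = 0.677) in WT, 0.17 without WT air 8 and 0.49 without WT air 10. In KO it was -0.14 ± 0.22 (-0.61 to 0.33, edgeR adjusted p = 0.924), and 0.097 without KO air 1. Fibroblast markers had the same pattern of signs, with 10 of 10 above 0 in WT (median 0.22) and 9 of 10 below 0 in KO (median -0.10), and their part in the Comp values was not tested.

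The remaining comparisons set KO against WT. In air, 0 of 10 passed the edgeR threshold (0% of all genes), 1 of 10 (Spp1) had an unadjusted p under 0.05 (4.36%), and the same gene was the 1 of 10 with every KO library higher (5.75%). In nicotine, 0 of 10 passed (0.00684% of all genes), and 1 of 10 had an unadjusted p under 0.05 (8.34%). That gene was Tnfrsf11b, with a log2 fold change of 0.46 ± 0.20 (0.02 to 0.90, unadjusted p = 0.0417, edgeR adjusted p = 0.569), and of 0.20 (unadjusted p = 0.305) without KO nicotine 5. In the same comparison Comp was the 1 gene of 10 with every KO library lower (5.59% of all genes), by a narrow gap between 66.0 CPM in KO nicotine 5 and 66.1 CPM in WT nicotine 12. The averages over genotypes and over exposures called 0 of 10 each, against 0% and 0% of all genes. At an unadjusted p under 0.05 there were 3 of 10 (Ank, Enpp1 and Tnfrsf11b) for nicotine, against 10.9%, and 1 of 10 (Spp1) for KO, against 8.41%. Apart from the Spp1 call by DESeq2 given above, DESeq2 and voom called 0 of the 10 in these comparisons.

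The authors' deposited tables of nicotine against air gave the same signs for all 10 genes and called none of them. In the authors' deposited table for WT, 123 of 17223 genes were under an adjusted p of 0.05. That table gave Acan -0.97 ± 0.34 (adjusted p = 0.217), Tnfrsf11b -0.48 ± 0.20 (0.395) and Ank -0.34 ± 0.16 (0.524) on the log2 scale. The authors' deposited table for KO had 7 genes under 0.05 and an adjusted p of 0.997 for each of the 10.

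**Figure D4:**
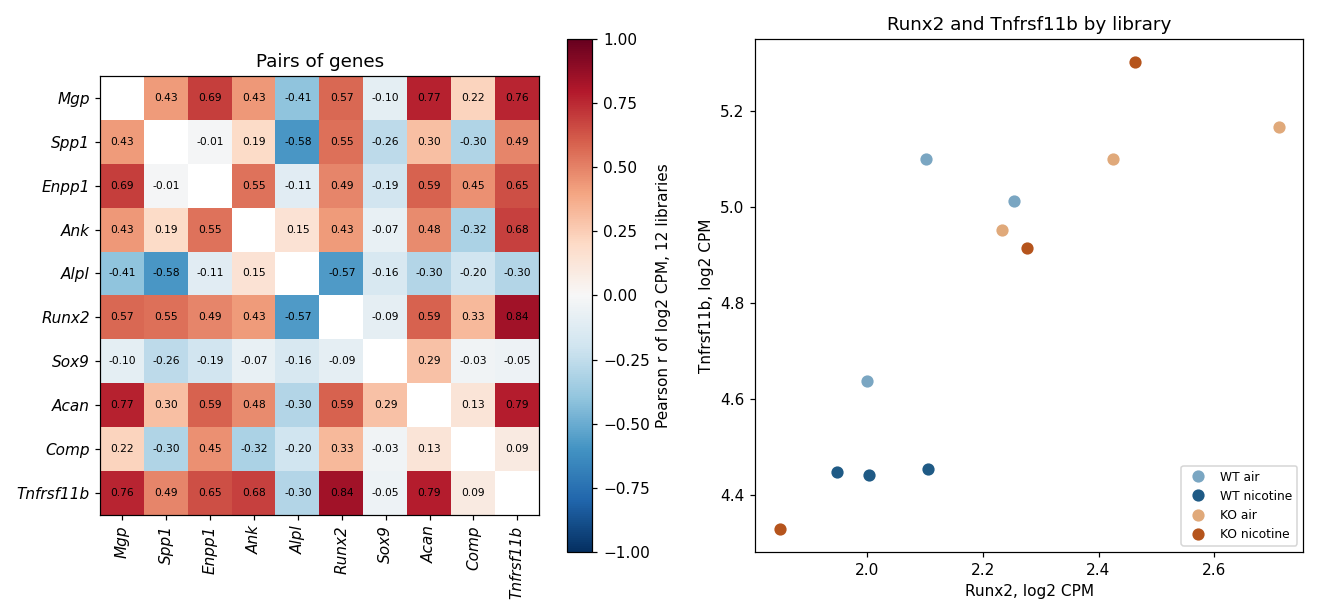
Left, Pearson r of log2 CPM over 12 libraries for each of the 45 pairs of genes, from -1 (blue) to 1 (red). Right, log2 CPM of Runx2 (horizontal) and Tnfrsf11b (vertical) with 1 point per library coloured by group. KO nicotine 4 is lowest on both axes, and the points rise together with r of 0.84.

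Across the 12 libraries the genes varied together to different degrees. Of 45 pairs, 27 had a Pearson r above 0 on the log2 CPM scale. A permutation test (100000 resamples, two-sided, adjusted over 45 pairs) passed for 1 pair, Runx2 and Tnfrsf11b. Its r was 0.84 (permutation p = 0.00056, adjusted 0.0252) and Spearman's rho 0.83 (permutation p = 0.00162, adjusted 0.0576), and no pair passed by Spearman. The r was 0.69 within the 6 WT libraries and 0.90 within the 6 KO libraries, and 0.84 without KO air 1 and KO nicotine 4, the 2 libraries farthest from the Runx2 median. Leaving out WT air 8, WT air 10, WT nicotine 11, WT nicotine 12 or KO nicotine 4 left 0 pairs past the threshold. Acan and Tnfrsf11b had r of 0.79, Mgp and Acan 0.77 and Mgp and Tnfrsf11b 0.76. Sox9, Alpl and Comp had r of -0.05, -0.30 and 0.09 to Tnfrsf11b. All these values share the same libraries and their tissue make-up, which was not removed.

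The genes most like each of the 10 were sought by Pearson r over the 12 libraries among 10473 genes with a mean of at least 5 CPM, as a description without a test. Enpp1 had the closest partners, Calm2 (0.98), Nox4 (0.97) and Reep2 (0.97). Those of Ank were Rps6ka4 (0.94), Arpin (0.93) and Stxbp4 (0.93), and those of Mgp were Stk25 (0.93), Arpc1b (0.92) and Plcd1 (0.92). Tnfrsf11b was closest to Meis1 (0.92), Scarf2 (0.92) and Med24 (0.91), and Runx2 to Crnkl1 (0.93), Cep97 (0.85) and Igfbp2 (0.85). Acan was closest to Cux1 (0.90), Zfp346 (0.89) and Trim47 (0.89), and Comp to Naalad2 (0.87), Chrdl1 (0.86) and Pdgfrl (0.86). For Sox9 the nearest were Kmt2c (0.87), Reps1 (0.84) and Setd2 (0.83), for Alpl Ngrn (0.86), Adprhl2 (0.83) and Mtmr14 (0.83), and for Spp1 Mypop (0.87), Cdk10 (0.85) and Chrd (0.84).

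The wider pathway was read through 6 lists of 105 genes, of which 75 were tested. By edgeR 0 of the 75 were called in each of the 7 comparisons. With nicotine, an unadjusted p under 0.05 was found for 11 of 75 in WT (9.84% of all genes tested), 4 in KO (4.58%) and 15 on average (10.9%), and for 6 in the interaction (4.43%). For KO against WT it was found for 3 in air (4.36%), 9 in nicotine (8.34%) and 7 on average (8.41%). DESeq2 called Cilp with nicotine in WT, among 100 genes in all, and Smpd3 with nicotine averaged, among 91, and voom called 0 of the 75.

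Among phosphate and pyrophosphate genes (14 of 18 tested, 8 above and 6 below 0 with nicotine in WT), 2 had values above 0 in both genotypes that were beyond an unadjusted p of 0.05 on average. Smpd3, a neutral sphingomyelinase needed for skeletal mineralization, had log2 fold changes of 0.31 ± 0.19 in WT, 0.80 ± 0.19 in KO and 0.56 ± 0.13 on average (edgeR adjusted p = 0.605, 0.878 and 0.301). Slc20a1, the sodium-phosphate cotransporter PiT-1, had 0.40 ± 0.18, 0.42 ± 0.18 and 0.41 ± 0.13 (edgeR adjusted p = 0.5001, 0.878 and 0.336). The list of circulating and vitamin K dependent inhibitors (8 of 13 tested, 5 above and 3 below 0 in WT) also held matrix protein genes outside that class. Of these, Matn2 was at 0.37 ± 0.15 in WT and Sparcl1 at -0.39 ± 0.16 in KO (edgeR adjusted p = 0.437 and 0.878).

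Of the osteoblast and bone matrix genes, 19 of 24 were tested, with 10 above and 9 below 0 with nicotine in WT and 8 above and 11 below in KO. Bmp2, a bone morphogenetic protein that can start osteoblast differentiation, had the smallest p in WT. WT libraries had 242, 190 and 177 counts under air against 245, 434 and 614 under nicotine, and KO libraries 207, 104 and 166 against 223, 130 and 250. WT nicotine 11 and 12 were above all other libraries. Its log2 fold change was 1.12 ± 0.30 (edgeR adjusted p = 0.273) with nicotine in WT and -0.70 ± 0.22 (edgeR adjusted p = 0.431) for KO against WT on average.

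Chondrocyte and cartilage genes (16 of 26 tested) had 10 above and 6 below 0 in WT and 11 above and 5 below in KO. Cilp, a cartilage intermediate layer protein, had 72, 106 and 43 counts in WT air and 176, 151 and 186 in WT nicotine. Every WT nicotine library was higher than every WT air library, which held for 7.13% of all genes tested. The log2 fold change of Cilp was 1.29 ± 0.34 (edgeR adjusted p = 0.270) in WT. KO air had 95, 97 and 164 counts of it and KO nicotine 133, 70 and 82. Of the osteoclast and RANK ligand genes (8 of 13 tested, 6 above and 2 below 0 in WT), Tnfrsf11a led in WT as given above, and in KO Atp6v0d2 was at 2.18 ± 0.77 (edgeR adjusted p = 0.878) from 0 to 20 counts per library. The osteopontin receptors and processing genes (10 of 11 tested) had 3 above and 7 below 0 in WT and 4 above and 6 below in KO. In this list Itga8, an integrin subunit of smooth muscle that binds osteopontin, averaged -0.37 ± 0.15 with nicotine (edgeR adjusted p = 0.405).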

How the data were processed

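Thoracic aorta RNA of 12 libraries was counted per gene by the authors with HTSeq on the mouse build mm9, per the submitters' processing notes. No aligner, annotation, strand setting or version is named in the sources used here. Counts as deposited are unnormalised whole numbers, 1 row per symbol. The authors also deposited, per the file headers, a table per genotype of nicotine against air with a log2 fold change with its standard error, a test score and an unadjusted and adjusted p-value.

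Groups came from the labels. Genes were kept by filterByExpr (14621 of 27933), scaled by TMM (factors 0.962 to 1.05) and tested in edgeR 4.0.16 by a robust quasi-likelihood fit of 4 group means, with 8 residual degrees of freedom. The biological coefficient of variation was 0.233, and Benjamini-Hochberg adjustment ran over all genes tested with a threshold of 0.05. A standard error is the size of the log2 change divided by the root of its F statistic. CPM are TMM-scaled, and log2 CPM used a prior count of 2. The fit was tested on simulated data. Alternatives were DESeq2 1.42.0 (alone and as size factors), limma 3.58.1 voom, no filter, no robust fit, only the compared groups, and leaving out each library.

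The 10 genes and the gene lists were chosen with earlier results of these data known. From each pathway list the rule named called genes and up to 4 with the smallest unadjusted p in 4 comparisons, and for each of the 10 genes the 3 with the highest r, skipping predicted genes. Not every gene taken by the rule is reported here. Promoters came from RefSeq (GRCm38.p6), a later build than that of the counts, and were used for sequence only. Further software was Python 3.11.15 with scipy 1.17.1, matplotlib 3.10.9, numpy 2.4.6 and pandas 2.3.3, and R 4.3.3.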

Additional observations from a re-analysis of the deposited data

How the results depend on the processing

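No paired analysis was possible because no library number occurs in more than 1 group. For the 26 log2 fold changes of the 10 genes that were tried, 480 of 490 alternative values kept their sign and their side of the edgeR threshold, and the count of the 10 genes called kept its value in 129 of 130 alternatives. The exception was 1 call, Spp1 for KO against WT averaged, by DESeq2. These tallies say little, because part of them could hardly come out otherwise. None of the 26 values started past the threshold. Leaving out a library of one genotype barely moves a nicotine fold change in the other. A value counted as kept could still move in size, as for Mgp with nicotine in WT, from -0.64 to -0.097. Values turned sign only when 1 library was left out. With nicotine in WT, Spp1 then ran from -0.56 to 0.10 (0.00048 without WT air 10) and Sox9 from -0.039 to 0.75. With nicotine in KO, Spp1 ran from -2.08 to 0.63, Mgp from -0.23 to 0.14 (0.0016 without KO air 7), Acan from -0.064 to 0.67, Comp from -0.29 to 0.097 and Tnfrsf11b from -0.42 to 0.047. Counts of all genes called moved more, and the cause was not tested. Nicotine in WT (3) gave 7 with DESeq2 size factors, 21 without a filter, 100 by DESeq2, 0 with only the compared groups, 0 to 34 leaving out 1 library and 6 without KO air 7 and KO nicotine 3. The interaction (0) gave 1 without a filter, 4 by DESeq2 and 0 to 1 leaving out 1 library. KO against WT in air (0) gave 12 by DESeq2 and 2 with only the compared groups. KO against WT in nicotine (1) gave 6, 7 and 76 with size factors, without a filter and by DESeq2, 0 to 4 leaving out 1 library and 0 without both KO libraries. Nicotine averaged (0) gave 6 without a filter, 91 by DESeq2 and 0 to 38 leaving out 1 library, and KO averaged (0) gave 12, 116 and 0 to 1. Of the pairs (1 past the threshold), 11 passed once group means were removed, where the permutation p is too small because the means were removed first, and 0 to 3 passed leaving out 1 library. Spp1 had 4 to 132 counts per library, so counting error adds to its spread.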

Other observations

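The ratio of Alpl to Enpp1 counts, of the enzyme that splits pyrophosphate to the one that makes it, was computed per library as a description within each library, without gene length. For WT it was 0.363, 0.242 and 0.242 under air (8, 9 and 10) and 0.324, 0.392 and 0.274 under nicotine (6, 11 and 12). For KO it was 0.221, 0.342 and 0.258 under air (1, 2 and 7) and 0.303, 0.516 and 0.315 under nicotine (3, 4 and 5). The exposures overlapped in both genotypes, and KO nicotine 4 was highest. That library had a smooth muscle sum of 27650 CPM and the highest adipocyte sum, 6446 CPM. The lowest ratios, in KO air 1, WT air 9 and WT air 10, came with smooth muscle sums of 42900, 51400 and 46230 CPM. KO nicotine 3, with the lowest smooth muscle sum (25660 CPM), had a ratio of 0.303. The part of tissue make-up in the ratio was not tested. Ahsg, which encodes fetuin-A, a circulating inhibitor of calcification made by the liver, had 1318 counts in KO nicotine 3 and 70 to 280 counts in the other libraries. Slc34a1, a kidney sodium-phosphate cotransporter, had 16, 32 and 45 counts in KO air 7, KO nicotine 3 and KO nicotine 4 and 0 to 4 counts in the other 9 libraries. Prg4, which encodes the joint lubricant lubricin, had 755 counts in KO nicotine 3 and 57 to 202 in the others. These genes were chosen after their values were seen.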
